A study of Mus musculus with 18 samples.

Results

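Adipose progenitor and fibroblast markers are the 9 genes Pdgfra, Pdgfrb, Dpp4, Pi16, Cd34, Ly6a, Dlk1, F3 and Thy1, taken by symbol from the 52093 symbols of an RNA-seq data set of 3 adipose tissues. All 9 were found, and each is represented by its row with the highest mean RPKM (reads scaled by the length of the row and by the total of the sample, a level per length) over 18 samples. The samples came from WT male C57BL/6 mice that had eaten a high-fat diet (HFD) during 12 weeks, with 6 mice for each tissue. The age, 16 weeks, comes from the supplement of the study, which names the substrain C57BL/6NTac, whereas a protocol in the labels names C57BL/6J. Inguinal (iWAT) and epididymal (eWAT) white fat was digested with collagenase, and only the floating mature adipocytes were collected, whereas brown fat (BAT) was snap-frozen and extracted as whole tissue, although a cell type field calls it adipocytes. Whole tissue against isolated adipocytes therefore cannot be told apart from BAT against white fat. One label field names regular chow, while the titles and the design name the HFD, and the samples were treated as HFD samples. The labels name no transgene or agent other than the diet. By the titles, the white depots came from mice 1, 2, 3, 4, 5 and 16 and BAT from mice 1, 2, 5, 16, 17 and 18.

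Adipose tissue holds, beside the fat-laden adipocytes, a stroma of fibroblast-like progenitors that can divide and turn into new adipocytes, together with vessel cells, mural cells around the vessels and immune cells. Progenitors are commonly recognised by the receptor tyrosine kinase PDGFRα and by the surface proteins CD34 and Sca-1 (the product of Ly6a), and subsets of them by DPP4 and PI16 (interstitial progenitors), by tissue factor (the product of F3, also named CD142) or by the preadipocyte protein DLK1. Several of these genes are not specific to progenitors. PDGFRβ is abundant on mural cells, CD34 and Sca-1 are also found on endothelial cells, and THY1 is found on T cells as well as on fibroblasts. The floating fraction is meant to hold mostly adipocytes, so the question addressed here is how much RNA of these stromal markers each preparation held, and how it varied.

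RefSeq promoter sequences (GRCm38.p6, a later build than the mm9 build of the deposited files) were matched by gene ID for 6 of the 9 genes (Pdgfra, Dpp4, Pi16, Cd34, Dlk1 and F3). The 250 bases before the start are shown for 3 of them, because Pdgfra and Cd34 on the one hand and F3 on the other had unlike patterns across the iWAT mice, described by mouse after the single genes. Both strands were searched for 4 motifs that do not overlap here, and capitals mark the matches. The letters searched were TGANTCA for AP-1 factors. For the GC box they were GGGCGG. For ETS factors they were CAGGAA, and for the TATA box TATAAA.
Pdgfra (chr5:75152001-75152250, + strand): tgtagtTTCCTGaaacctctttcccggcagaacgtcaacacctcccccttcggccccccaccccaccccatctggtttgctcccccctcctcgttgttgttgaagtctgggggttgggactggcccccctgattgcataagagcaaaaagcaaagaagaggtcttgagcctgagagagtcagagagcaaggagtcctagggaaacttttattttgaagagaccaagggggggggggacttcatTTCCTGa
Cd34 (chr1:194938571-194938820, + strand): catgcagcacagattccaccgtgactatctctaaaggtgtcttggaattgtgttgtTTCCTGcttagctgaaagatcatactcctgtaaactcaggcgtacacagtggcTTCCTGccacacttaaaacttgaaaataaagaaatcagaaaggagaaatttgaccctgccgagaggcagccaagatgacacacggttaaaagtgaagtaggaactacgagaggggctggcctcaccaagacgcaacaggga
F3 (chr3:121723287-121723536, + strand): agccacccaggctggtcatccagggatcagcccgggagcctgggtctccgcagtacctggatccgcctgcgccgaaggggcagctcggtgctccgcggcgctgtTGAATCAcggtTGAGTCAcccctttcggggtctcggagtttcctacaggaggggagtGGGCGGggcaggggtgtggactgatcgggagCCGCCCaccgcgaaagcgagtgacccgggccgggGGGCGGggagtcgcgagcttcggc
Pdgfra and Cd34 each held 2 matches to CAGGAA, both on the reverse strand as TTCCTG, at 244 and 7 bases and at 194 and 141 bases before the start, and no match to the other motifs. CAGGAA was present, in any number of matches, in 25.7% of all 32851 promoters of the same length. F3 held 2 matches to TGANTCA (146 and 135 bases before the start) and 3 to GGGCGG (89, 58 and 24 bases before the start). In any number of matches, TGANTCA was present in 6.75% of all promoters and GGGCGG in 32.7%. The shares with several matches were not counted. The F3 sequence was 70.0% G and C, against 54.4% for Pdgfra, 46.4% for Cd34 and a median of 52.4% over all promoters. TATAAA, found in 12.4% of all promoters, was absent from these 3 sequences. The promoters of Dpp4 and Dlk1, genes that were also highest in iWAT mice 1 and 5, are not shown and held no match to CAGGAA. That of Pi16, for which mouse 2 lay between these mice, held 1 match, 250 bases before the start. These matches describe the letters only, and a link to the patterns across mice was not tested.

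Reads on the rows numbered 24655056 to 42518483 per sample, and no pair of samples of a tissue agreed within sampling noise. The labels give separate mouse numbers within a tissue, so the samples of a tissue were taken as different mice. The tissues were checked against adipocyte markers. The summed RPKM of 5 white adipocyte markers (Adipoq, Plin1, Lep, Cidec and Retn) was 2721 to 4037 in iWAT, 527 to 1862 in eWAT and 632 to 825 in BAT, so eWAT overlapped BAT. With TMM scaling, 2 of the 5 were higher in eWAT than in BAT and Plin1 was lower (log2 fold change -1.35), and on total reads 4 were higher and none lower. That of 5 brown adipocyte markers (Ucp1, Cidea, Ppara, Cox8b and Elovl3) was 29.4 to 45.6, 3.87 to 15.1 and 2734 to 3935, and all 5 were higher in BAT than in iWAT and eWAT. In eWAT, 6 macrophage markers summed to 2564 to 4134 RPKM, above the whole range of the white adipocyte sum there. Sums over different genes do not measure shares of cells, and how far the eWAT fraction consisted of adipocytes was not tested. BAT stood apart in composition: its 10 rows with the most reads held 43.6 to 54.3% of the reads, against 9.94 to 20.5% in the white depots. RPKM is not corrected for this, whereas the tests used TMM scaling, under which the typical gene is equal between tissues. With scaling by total reads only, the median over all genes moved on the log2 scale to 0.87 for iWAT over BAT and to 0.89 for eWAT over BAT, so comparisons with BAT are given on both scales where a member's direction or call, or a list's counts, differed. The white depots were run in sequencing lanes 1 and 2 and BAT in lanes 3 and 4, so a lane effect and a difference of BAT cannot be told apart. In bulk samples, fewer cells of a type and less RNA per cell cannot be told apart either. Within tissues, iWAT mice 1 and 5 and eWAT mice 1 and 3 stood apart from the other mice, in ways given beside the results.

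The 9 genes spanned a wide range of levels in every tissue. Per length, Ly6a was the highest member in iWAT, eWAT and BAT (mean 72.7, 30.7 and 40.9 RPKM), and its 6 samples lay above all samples of the next gene, F3 (15.3, 10.0 and 15.3 RPKM). Pdgfrb and Cd34 came next and overlapped each other in each tissue. In iWAT, F3 also overlapped Pdgfrb (13.2 RPKM). Thy1, Pi16 and Pdgfra followed at 0.421 to 2.63 RPKM, with the order depending on the tissue: Pi16 (mean 1.93 RPKM) lay above Thy1 (mean 1.14 RPKM) in all 6 BAT samples, whereas Thy1 lay above Pi16 in all samples of iWAT and eWAT. Dpp4 and Dlk1 were lowest. Dlk1 lay below Dpp4 in all eWAT samples and above it in all BAT samples, and both overlapped in iWAT. The members were thus not at one common level, and Pdgfra, the usual progenitor receptor, was about as low as Pi16 in iWAT, with 3 of 6 samples on either side.

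**Figure D1:**
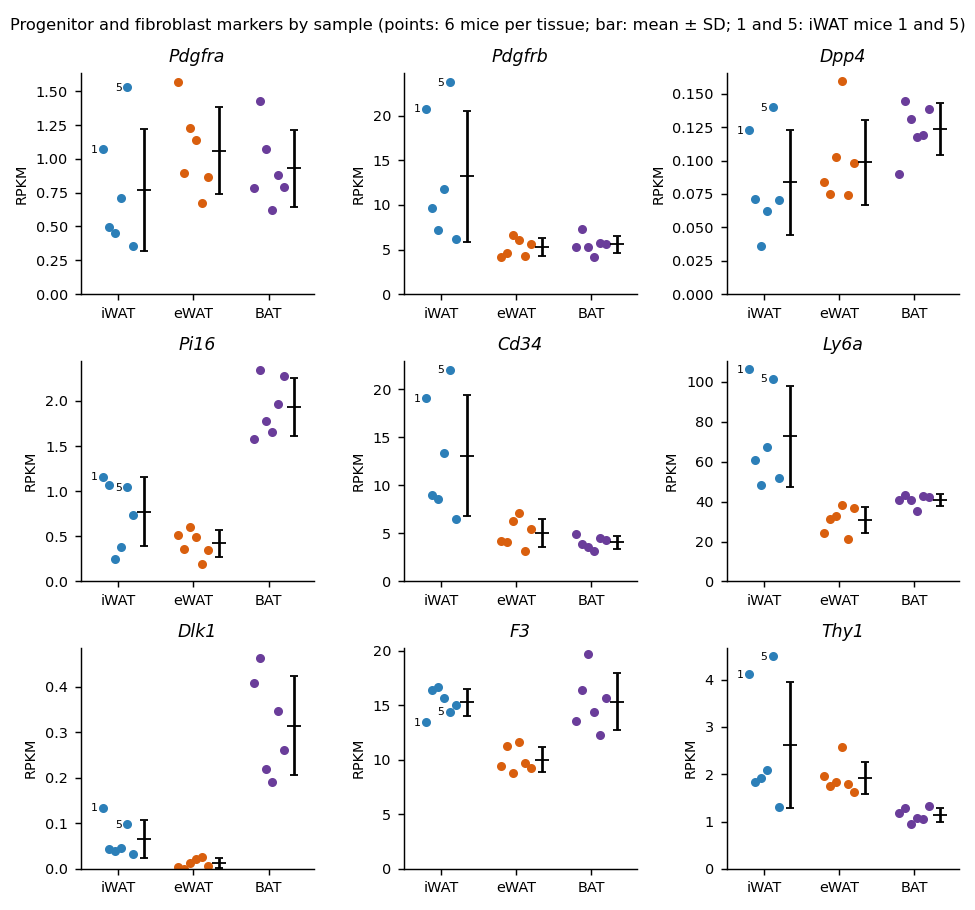
RPKM (linear axis from 0) of each gene in the 6 mice of iWAT adipocytes, eWAT adipocytes and whole BAT, with mean ± SD beside the points and iWAT mice 1 and 5 numbered. In iWAT, mice 1 and 5 hold the highest pair of points for 7 genes and the lowest pair for F3, and Pi16 and Dlk1 are highest in BAT.

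Pdgfra encodes the α receptor for platelet-derived growth factors (mm9, chromosome 5, 75548316 to 75594229, plus strand, 26 exons). It measured 0.359, 0.454, 0.498, 0.710, 1.07 and 1.53 RPKM in iWAT mice 16, 3, 2, 4, 1 and 5, which is a 4.26-fold range. In eWAT it lay between 0.676 and 1.57 RPKM (median 1.02), and in BAT between 0.620 and 1.43 RPKM (median 0.835). The 3 tissues overlapped. The mean of iWAT was below that of eWAT, at 0.771 ± 0.450 against 1.06 ± 0.318 RPKM (SD, n = 6 mice each), but the difference did not pass the test (log2 fold change -0.47 ± 0.31 SE, edgeR adjusted p = 0.192). Without iWAT mice 1 and 5 it did, at -1.01 (edgeR adjusted p = 0.00323). Against BAT, Pdgfra was lower in iWAT (log2 fold change -0.89 ± 0.28, edgeR adjusted p = 0.0102), while on total reads the difference was -0.02. Between eWAT and BAT it was -0.39 ± 0.20 (edgeR adjusted p = 0.0881) with TMM and 0.51 (edgeR adjusted p = 0.0351) without it, so that no direction can be given. Without eWAT mice 1 and 3, the TMM value passed at -0.63 (edgeR adjusted p = 0.00643).

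Pdgfrb encodes the β receptor of the same family (chromosome 18, 61204804 to 61244721, plus strand, 24 exons). Its RPKM in iWAT mice 16, 3, 2, 4, 1 and 5 was 6.19, 7.17, 9.69, 11.8, 20.8 and 23.8. In eWAT it ranged from 4.20 to 6.60 (median 5.12) and in BAT from 4.19 to 7.27 (median 5.50). Only the lowest iWAT mouse lay within the eWAT range, and mice 1 and 5 lay far above every other sample. Pdgfrb was higher in iWAT than in eWAT (log2 fold change 1.33 ± 0.29, a 2.51-fold difference, edgeR adjusted p = 0.00127). It was also higher in iWAT than in BAT (0.62 ± 0.26, edgeR adjusted p = 0.0412), but this rested on mice 1 and 5: without both, the value was 0.08 (edgeR adjusted p = 0.618). With the mouse number as a block, which kept only the 4 mice numbered in both tissues, it was 0.64 (edgeR adjusted p = 0.0799). Between eWAT and BAT, Pdgfrb was lower in eWAT with TMM (-0.67 ± 0.12, edgeR adjusted p = 7.54e-05) and at 0.23 without it (edgeR adjusted p = 0.155).

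Dpp4 encodes the surface peptidase dipeptidyl peptidase 4, or CD26 (chromosome 2, 62168130 to 62250288, minus strand, 30 exons). It was low everywhere, with 13 to 50 reads per iWAT sample, 26 to 50 per eWAT sample and 32 to 66 per BAT sample. In iWAT it ranged from 0.0361 to 0.140 RPKM (median 0.0708), in eWAT from 0.0740 to 0.159 RPKM (median 0.0912) and in BAT from 0.0896 to 0.144 RPKM (median 0.125). The ranges overlapped in RPKM. iWAT and eWAT did not differ beyond their spread (log2 fold change -0.23 ± 0.29, interval of 2 SE from -0.81 to 0.35, edgeR adjusted p = 0.499). With TMM, Dpp4 was higher in BAT than in iWAT (-1.18 ± 0.25, edgeR adjusted p = 0.000562) and than in eWAT (-0.92 ± 0.20, edgeR adjusted p = 0.000599). On total reads these differences were -0.31 (edgeR adjusted p = 0.288) and -0.01 (edgeR adjusted p = 0.956), so the call depends on the scaling.

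Pi16 encodes peptidase inhibitor 16, a protein of interstitial fibroblasts (chromosome 17, 29455821 to 29466358, plus strand, 4 exons). In BAT its 6 samples lay between 1.57 and 2.34 RPKM (median 1.87), above every sample of iWAT (0.247 to 1.16 RPKM, median 0.893) and of eWAT (0.194 to 0.607 RPKM, median 0.427). In iWAT the mice split over a 4.69-fold range: mice 3 and 4 had 0.247 and 0.379 RPKM, mouse 16 had 0.740 and mice 5, 2 and 1 had 1.05, 1.07 and 1.16. Pi16 was higher in BAT than in iWAT (log2 fold change of iWAT over BAT -1.94 ± 0.28, edgeR adjusted p = 1.16e-05) and than in eWAT (-2.78 ± 0.20, a 6.87-fold difference, edgeR adjusted p = 4.4e-09). Both calls held on total reads (-1.08 and -1.87). The difference between iWAT and eWAT was near the threshold (0.88 ± 0.36, edgeR adjusted p = 0.0428) and missed it with the mouse number as a block (0.80, edgeR adjusted p = 0.132), with lane as a covariate (0.82, edgeR adjusted p = 0.0828), within lane 1 (0.76, edgeR adjusted p = 0.335) and within lane 2 (0.92, edgeR adjusted p = 0.102). It also missed it on total reads (0.80, edgeR adjusted p = 0.0674), without iWAT mice 1 and 5 (0.59, edgeR adjusted p = 0.2) and in limma on log2 RPKM with 0.1 or 1 RPKM added (adjusted p = 0.1 and 0.0695). The Pi16 row overlaps a transcript on the opposite strand with a mean of 14.7 reads, against 131 for Pi16. Since strand was not stated to be used in counting, reads of the overlap are uncertain.

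Cd34 encodes a sialomucin of progenitors and vessels (chromosome 1, 196765015 to 196787486, plus strand, 7 exons). Its levels in iWAT mice 16, 3, 2, 4, 1 and 5 were 6.54, 8.55, 9.04, 13.3, 19.1 and 22.0 RPKM. In eWAT they were 3.13 to 7.10 RPKM (median 4.82) and in BAT 3.14 to 4.94 RPKM (median 4.12). All iWAT samples but that of mouse 16 lay above the whole eWAT range, and all 6 lay above BAT in RPKM. Cd34 was higher in iWAT than in eWAT (log2 fold change 1.37 ± 0.28, a 2.58-fold difference, edgeR adjusted p = 0.000826) and than in BAT (1.06 ± 0.23, edgeR adjusted p = 0.000589). Both calls held without mice 1 and 5, at 0.95 (edgeR adjusted p = 0.00351) and 0.64 (edgeR adjusted p = 0.00119). eWAT against BAT was -0.28 ± 0.16 (edgeR adjusted p = 0.12). With the mouse number as a block, in the 4 mice numbered in both tissues, it was -0.51 (edgeR adjusted p = 0.00764). On total reads it was 0.63 (edgeR adjusted p = 0.00329), so its direction is not settled. An opposite-strand transcript overlaps the Cd34 row (mean 112 reads, against 1660).

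Ly6a encodes Sca-1, a small surface protein held by a lipid anchor (chromosome 15, 74825307 to 74828337, minus strand, 4 exons). It reached 106 and 102 RPKM in iWAT mice 1 and 5 and lay between 48.2 and 67.3 RPKM in the other 4. eWAT ranged from 21.4 to 38.1 RPKM (median 32.0) and BAT from 35.2 to 43.2 RPKM (median 41.5). All iWAT samples were above all eWAT and BAT samples in RPKM, and the BAT samples were the tightest group of any member, with a coefficient of variation of 7.11% against 34.6% in iWAT. Ly6a was higher in iWAT than in eWAT (log2 fold change 1.24 ± 0.20, edgeR adjusted p = 0.00014) and lower in eWAT than in BAT (-1.003 ± 0.12, edgeR adjusted p = 1.34e-06), the latter with TMM and not on total reads (-0.09, edgeR adjusted p = 0.537). iWAT against BAT did not pass with TMM (0.21 ± 0.15, interval of 2 SE from -0.10 to 0.52, edgeR adjusted p = 0.229), and was 1.08 on total reads (edgeR adjusted p = 2.86e-05). Ly6a has close relatives in the Ly6 cluster, and how reads shared among them were counted is not given in the sources used here.

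Thy1 encodes a lipid-anchored surface protein of fibroblasts, T cells and neurons (chromosome 9, 43851467 to 43856662, plus strand, 4 exons). It measured 4.12 and 4.50 RPKM in iWAT mice 1 and 5 and 1.30 to 2.09 RPKM in the other 4, against 1.63 to 2.58 RPKM in eWAT (median 1.82) and 0.943 to 1.32 RPKM in BAT (median 1.13). Outside mice 1 and 5, the ranges of iWAT and eWAT overlapped. The difference between them was 0.44 ± 0.26 (edgeR adjusted p = 0.149) and turned to -0.05 without mice 1 and 5 (edgeR adjusted p = 0.793). iWAT over BAT passed narrowly (0.57 ± 0.25, edgeR adjusted p = 0.0465), but gave 0.08 without mice 1 and 5 (edgeR adjusted p = 0.622). With the mouse number as a block, in the 4 mice numbered in both tissues, it gave 0.59 (edgeR adjusted p = 0.133). eWAT over BAT was 0.16 ± 0.13 (edgeR adjusted p = 0.243) with TMM and 1.07 on total reads (edgeR adjusted p = 1.23e-06). The defining T cell genes Cd3e, Cd3d and Cd3g had means of 0.00619 to 0.0474 RPKM in the 3 tissues, and 7 T cell markers together had a mean sum of 0.952, 0.752 and 0.361 RPKM in iWAT, eWAT and BAT, below the mean of Thy1 in each. Levels of different genes do not bound the part of T cells in Thy1, which was not tested. A second, opposite-strand row also carries the symbol Thy1 (mean 19.1 reads, against 169) and was not added.

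Dlk1 encodes a transmembrane protein that restrains adipocyte differentiation and lies in an imprinted region (chromosome 12, 110691033 to 110701546, plus strand, 6 exons). BAT held 22 to 90 reads per sample, or 0.190 to 0.462 RPKM (median 0.304). iWAT held 20 and 15 reads in mice 1 and 5 and 5 to 7 in the others, or 0.0317 to 0.134 RPKM, and eWAT held 0 to 4 reads. With at most 4 reads in an eWAT sample, Dlk1 there was near the limit of 3 reads that a count of 0 allows. The 3 groups did not overlap. Dlk1 was higher in BAT than in iWAT (log2 fold change of iWAT over BAT -2.87 ± 0.31, edgeR adjusted p = 4.69e-07) and than in eWAT (-5.27 ± 0.39, edgeR adjusted p = 4.97e-09), both also on total reads. Between the white depots it was under the minimum of 10 reads on average and was not tested. In a fit with no such minimum, the log2 fold change of iWAT over eWAT was 2.45 ± 0.55 (edgeR adjusted p = 0.00163).

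F3 encodes tissue factor, the cell-surface starter of coagulation (chromosome 3, 121426455 to 121437970, plus strand, 6 exons). It lay between 13.4 and 16.7 RPKM in iWAT (median 15.3), between 8.77 and 11.6 RPKM in eWAT (median 9.58) and between 12.3 and 19.7 RPKM in BAT (median 15.0). Every iWAT sample was above every eWAT sample, and the spread in iWAT was the smallest of the 9 genes there (coefficient of variation 8.08%). F3 was higher in iWAT than in eWAT (log2 fold change 0.62 ± 0.09, edgeR adjusted p = 6.87e-05). Mean RPKM was equal in iWAT and BAT, at 15.3 ± 1.23 and 15.3 ± 2.59, whereas with TMM F3 was higher in BAT than in iWAT (-0.62 ± 0.12, edgeR adjusted p = 0.000241) and on total reads higher in iWAT (0.25, edgeR adjusted p = 0.0455). eWAT was below BAT with TMM (-1.21 ± 0.12, edgeR adjusted p = 2.36e-07) and on total reads (-0.29, edgeR adjusted p = 0.0282).

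Across the list, 5 of the 8 members tested were called between iWAT and eWAT (Pdgfrb, Pi16, Cd34, Ly6a and F3), all higher in iWAT. Of all 19623 genes tested, 68.6% were called, 34.1% higher in iWAT and 34.5% higher in eWAT, so the share of members called was below or near the background, and all 5 called shared a direction. On total reads 4 were called, without Pi16. The median log2 fold change of the 8 tested was 0.75, against 0.00 over all genes. The samples of Ly6a, Dlk1 and F3 did not overlap after TMM scaling, as for 43.5% of all genes. Between iWAT and BAT, 8 of 9 were called (background 75.3%), 3 higher in iWAT (Pdgfrb, Cd34 and Thy1, background 38.1%) and 5 higher in BAT (Pdgfra, Dpp4, Pi16, Dlk1 and F3, background 37.2%), with a median of -0.62 against 0.01. The samples of Dpp4, Pi16, Dlk1 and F3 did not overlap (background 56.4%). On total reads the counts became 5 higher in iWAT and 2 in BAT, where 13703 of all 16757 genes called were higher in iWAT. Between eWAT and BAT, 6 of 9 were called (background 82.5%), all higher in BAT (Pdgfrb, Dpp4, Pi16, Ly6a, Dlk1 and F3, background 41.4%) and none higher in eWAT (background 41.1%), with a median of -0.92 against -0.02. The samples of Pdgfrb, Pi16, Ly6a, Dlk1 and F3 did not overlap (background 66.3%). On total reads, called members were 3 higher in eWAT and 3 higher in BAT, where 12965 of all 17026 genes called were higher in eWAT. The comparisons share their samples in pairs and are not independent of each other. Calls against both other tissues held on both scales for Pi16, higher in BAT, for Cd34 and Pdgfrb, higher in iWAT, and for F3, lower in eWAT. The Pdgfrb call against BAT rested on iWAT mice 1 and 5 (0.08 without both, edgeR adjusted p = 0.618). It was also lost in 7 of 12 fits that each left out 1 sample. Those of Cd34 and Pi16 between iWAT and BAT were kept in all 12. Dlk1 was higher in BAT than in each white depot on both scales.

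**Figure D2:**
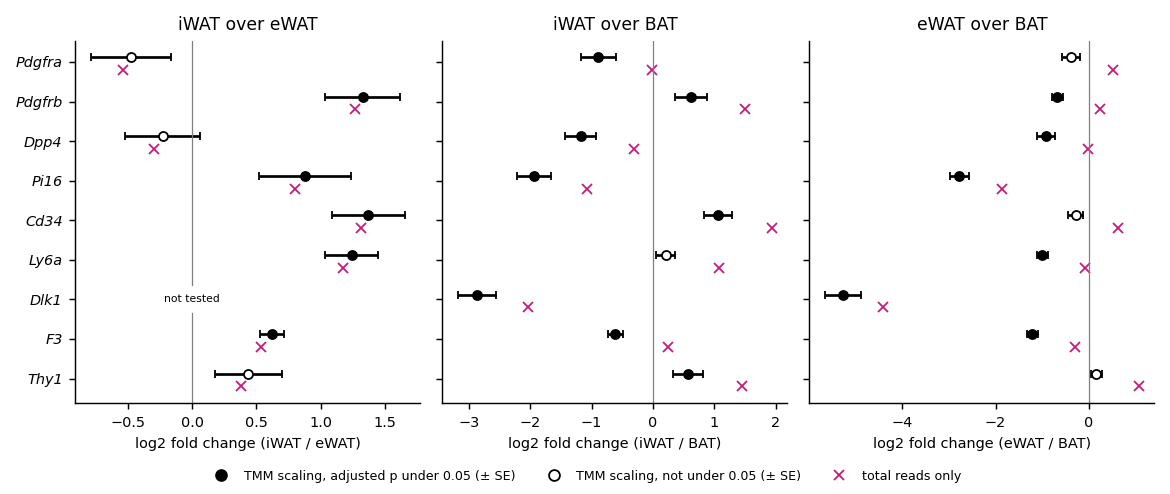
Log2 fold change of each gene in the 3 comparisons of tissues with TMM scaling (circles ± SE, filled where the edgeR adjusted p was under 0.05) and on total reads only (crosses). The crosses lie near the circles for iWAT over eWAT and to the right of them in both comparisons with BAT, where the median of all genes moves to 0.87 and 0.89.

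For 7 of the 9 genes, all but Dlk1 and F3, the coefficient of variation was larger in iWAT than in eWAT and BAT. Mice 1 and 5 had the highest pair of values of the 6 mice for 7 of the 9 genes: Pdgfra, Pdgfrb, Dpp4, Cd34, Ly6a, Dlk1 and Thy1. For Pi16, mouse 2 lay between them. For F3 they had the lowest pair, 13.4 and 14.4 RPKM against 15.0 to 16.7 RPKM in the other 4. Mouse 1 was sequenced in lane 1 and mouse 5 in lane 2. In eWAT, mouse 1 was highest for Pdgfra and mouse 5 for Dlk1 alone, mouse 5 was lowest for 5 of the 9 genes, and mouse 4 was highest for 5. In BAT, mouse 2 was highest for 6 and mouse 16 lowest for 5 in RPKM, which is not corrected for composition. With TMM scaling, mouse 18 was above mouse 2 for Dpp4 (0.184 against 0.179) and Pi16 (3.02 against 2.91). Mouse 5 was then above mouse 2 for Ly6a (56.4 against 53.7), and mouse 1 (52.8) below mouse 16 (54.5).

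The same 2 iWAT samples were high in other cell type lists. The 10 mural markers, among them Rgs5, Acta2 and Myh11, summed to 341 and 385 RPKM in mice 1 and 5 and to 196 to 241 RPKM in the other 4, and the 8 endothelial markers, among them Cdh5, Pecam1 and Kdr, summed to 471 and 588 RPKM against 207 to 368. The 4 B cell markers and the 5 Schwann cell markers were also higher in both (1.78 and 2.17 against 0.658 to 1.27 RPKM, and 24.0 and 15.6 against 10.8 to 13.6 RPKM). The white adipocyte sum was lower in them, at 3288 and 2721 RPKM against 3431 to 4037. The 8 Areg genes and the 8 further interstitial progenitor genes, both described after the members, were also higher in both (58.2 and 66.1 against 23.4 to 40.7 RPKM, and 32.8 and 35.8 against 27.6 to 29.3 RPKM). The 12 fibroblast markers, whose sum is mostly Dpt, did not separate them, at 725 and 688 RPKM against 622 to 781, and neither did the 6 macrophage markers, at 557 and 784 RPKM against 452 to 891. The part of other cells in the levels of the 9 genes was not tested. In eWAT, mice 1 and 3 had the lowest white adipocyte sums (721 and 527 RPKM against 1336 to 1862) and the highest macrophage sums (4134 and 4064 RPKM against 2564 to 2821), and also the highest pairs of Pdgfra (1.57 and 1.22 RPKM) and Pi16 (0.518 and 0.607 RPKM). Without these eWAT mice, the 5 calls between iWAT and eWAT remained, whereas without iWAT mice 1 and 5 the call of Pi16 was lost and Pdgfra was called.

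**Figure D3:**
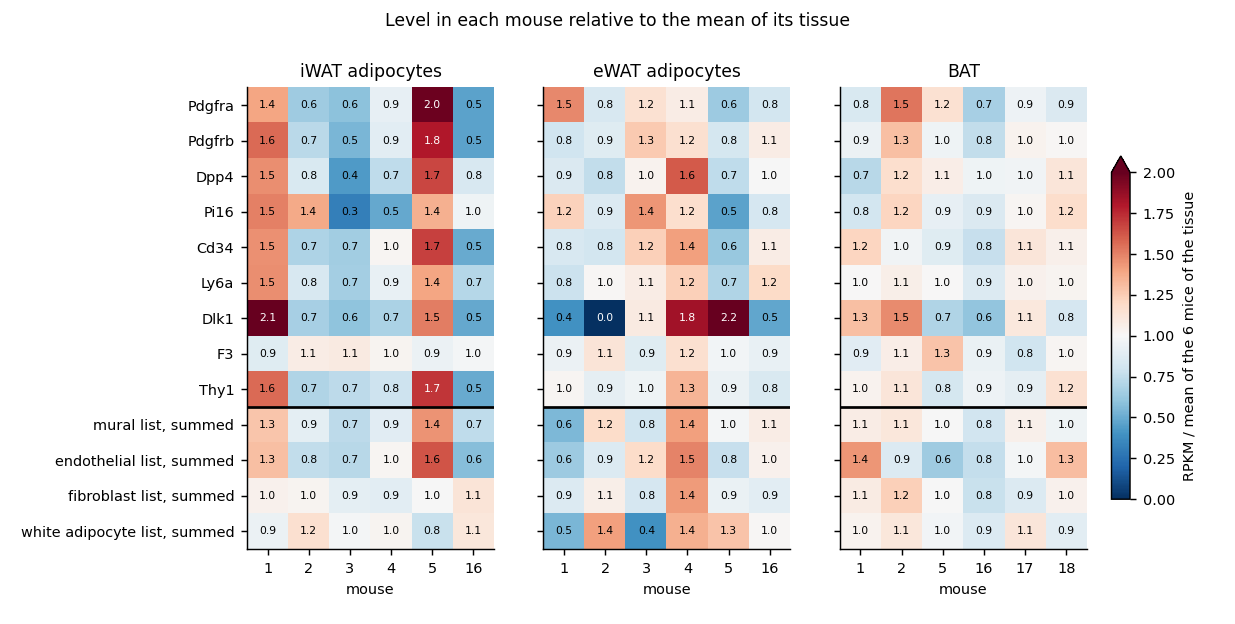
RPKM of each gene and summed RPKM of 4 marker lists in each mouse, divided by the mean of the 6 mice of the same tissue (colour and printed value, 1 decimal, columns are mice). In iWAT, mice 1 and 5 are above the mean for 8 genes, for the mural and the endothelial list, and below it for F3 and the white adipocyte list.

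To set the members against one another within a library, each was divided by Pdgfra in the same library, as log2((RPKM + 0.1)/(Pdgfra RPKM + 0.1)). The added 0.1 RPKM leaves these ratios partly dependent on the total of the library. The ratios were compared by an exact permutation test over samples (two-sided, 924 arrangements, 24 comparisons, smallest possible p 0.00216). In iWAT the ratio of Cd34 was held within a narrow range, from 3.76 to 4.05, although Cd34 itself varied 3.37-fold, and that of Pdgfrb ranged from 3.71 to 4.15. In eWAT these ratios were lower by 1.79 and 1.68 and did not overlap with iWAT (2.14 ± 0.43 and 2.23 ± 0.44, SD, n = 6 mice, exact permutation p = 0.00216 each, 0.00472 adjusted over 24). The ratios of Ly6a (6.47 ± 0.29 against 4.74 ± 0.48), Thy1 (1.66 ± 0.18 against 0.83 ± 0.36) and Pi16 (0.00 ± 0.77 against -1.17 ± 0.21) were also higher in iWAT without overlap, with the same p. Those of Dlk1 and F3 were higher by 1.05 and 1.13 with overlapping ranges (exact permutation p = 0.00799 and 0.0336 adjusted), and that of Dpp4 did not pass (0.39, exact permutation p = 0.182 adjusted). All 24 comparisons share Pdgfra as the denominator and are not independent. Pdgfra itself was at -0.47 for iWAT over eWAT with TMM, which raises these ratios together. A higher ratio therefore does not show that the member itself was higher. Thy1 itself was at 0.44 and Dpp4 at -0.23, neither of them called.

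Against BAT, the ratios of Pdgfrb, Cd34, Ly6a and Thy1 were higher in iWAT, by 1.42, 1.89, 1.11 and 1.35, without overlap (exact permutation p = 0.00216, 0.00472 adjusted). The ratio of Pi16 was lower in iWAT by 1.01 (exact permutation p = 0.0238, 0.0336 adjusted), with overlapping ranges, and missed the threshold without mice 1 and 5 (exact permutation p = 0.126 adjusted). That of Dlk1 was lower by 0.97 (exact permutation p = 0.00433, 0.00799 adjusted). The differences in the ratios of Dpp4 and F3 between iWAT and BAT did not pass the test (0.04, exact permutation p = 0.853, and 0.35, exact permutation p = 0.327). Between eWAT and BAT, the ratios of Pi16 (-2.18) and Dlk1 (-2.02) were lower in eWAT without overlap (exact permutation p = 0.00216, 0.00472 adjusted), as were those of Ly6a (-0.61) and F3 (-0.77) with overlapping ranges (exact permutation p = 0.0277 and 0.0148 adjusted). Thy1 narrowly missed the threshold (0.53, exact permutation p = 0.0548 adjusted), and Pdgfrb, Dpp4 and Cd34 did not pass (-0.26, -0.35 and 0.09, exact permutation p = 0.204, 0.126 and 0.742). Dpp4 and Dlk1 lie at or below the added 0.1 RPKM in many samples, so their ratios are compressed.

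**Figure D4:**
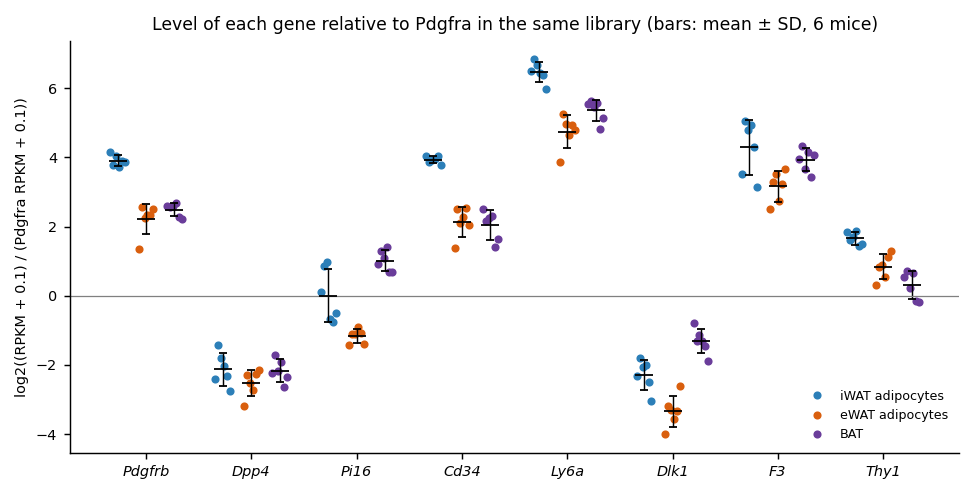
Log2 ratio of each gene to Pdgfra in the same library, with 0.1 RPKM added to both, in the 6 mice of each tissue, with mean ± SD. The iWAT points of Pdgfrb and Cd34 lie within 3.71 to 4.15 and above all eWAT and BAT points, and Pi16 and Dlk1 are highest in BAT.

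The genes whose levels moved most like each member from mouse to mouse were taken as those with the highest Pearson r of log2(TMM-scaled RPKM + 0.1) after subtracting the tissue mean, over 18 samples and 13679 genes with a mean of at least 50 reads. These values are descriptions. The points share libraries and depth, and iWAT mice 1 and 5 weigh on them, so r without both (16 samples) is given too. Cd34 was most like Sparcl1 (r = 0.99, 0.98 without), Gimap8 (0.97, 0.95) and Icam2 (0.97, 0.94). Pdgfrb was most like Notch3, a receptor of mural cells (0.97, 0.94), LOC100504381 (0.96, 0.89) and Cyyr1 (0.96, 0.92). Ly6a was most like Agtr1a (0.95, 0.90), Plvap, a protein of endothelial fenestrae (0.95, 0.91), and Vtn (0.94, 0.90). Pdgfra was most like Cyp1b1 (0.96, 0.92), A430110N23Rik (0.95, 0.89) and Nrp2 (0.94, 0.87), and Thy1 was most like Armcx2 (0.95, 0.84), Ror1 (0.93, 0.76) and Paqr8 (0.92, 0.69).

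For the other 4 members r was lower over all 18 samples. Dpp4 was like Efemp2 and Robo1 (0.85 and 0.84, or 0.75 and 0.79 without mice 1 and 5), Pi16 was most like Sh3bgrl2, Lrrn4cl and Fndc1 (0.78, 0.73 and 0.72, or 0.81, 0.65 and 0.64), and Dlk1 was most like Plod1, Smpdl3b and 4930518F22Rik (0.89, 0.83 and 0.82, or 0.86, 0.74 and 0.81). F3 was most like Gm14431, Trim44 and Gm8898 (0.84, 0.83 and 0.83, or 0.83, 0.83 and 0.82). Among the members themselves, r was 0.88 for Pdgfrb with Cd34, 0.88 for Cd34 with Ly6a and 0.87 for Pdgfrb with Ly6a, and 0.75, 0.78 and 0.72 without mice 1 and 5. F3 had a negative r with 7 of the other 8 members, the lowest with Dlk1 (-0.58), and with 2 of the 8 without those mice. None of these values is given as a test.

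Genes with related roles were taken from lists and compared in the same fits. Of 8 further interstitial progenitor genes, 2 were higher in iWAT and 3 in eWAT among 5 tested: Cd55, a complement regulator, was higher in iWAT (log2 fold change 1.45 ± 0.20), and Anxa3 (-1.51 ± 0.19) and the microfibril protein Mfap5 (-1.14 ± 0.25) were higher in eWAT, unlike Pi16. Against BAT, Sema3c, a secreted semaphorin, was higher in iWAT (2.78 ± 0.14) and in eWAT (1.93 ± 0.29), where Pi16 and Dpp4 with TMM scaling were lower, while Dact2 was lower (-1.83 ± 0.25 and -1.81 ± 0.39). In all, 3 of these genes were higher in iWAT and 1 in BAT among 6 tested, and 5 in eWAT and 1 in BAT, and on total reads 4 and 1, and 5 and 1. Of 8 genes of adipogenesis-regulatory cells (Aregs), the stromal cells named by F3, 4 were higher in iWAT and 1 in eWAT among 6, with Meox2 (2.16 ± 0.26) and Cygb (1.16 ± 0.29) up and Clec11a down (-1.19 ± 0.24). None was higher in eWAT than in BAT and 4 were lower among 5, among them Gdf10 (-1.84 ± 0.23) and Fmo2 (-1.62 ± 0.23), and iWAT against BAT was split, 3 and 3 of 6, with Fgf12 higher (2.72 ± 0.31) and Gdf10 lower in iWAT (-2.24 ± 0.29). On total reads, the split of Areg genes became 3 and 2 for iWAT over BAT and 1 and 3 for eWAT over BAT.

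Fibroblast genes took another course than Pi16, Dpp4 and Dlk1. Of 12 such genes, 10 of 11 tested were higher in iWAT than in BAT and none lower, and 8 were higher in eWAT than in BAT and 1 lower. The median log2 fold changes were 1.43 and 1.31, and on total reads 11 were higher in iWAT, 10 in eWAT and none in BAT. Dpt, which encodes the matrix protein dermatopontin, was at 476, 85.9 and 16.3 RPKM in iWAT, eWAT and BAT (4.27 ± 0.16 over BAT in iWAT, 1.80 ± 0.28 in eWAT), and Col1a1, a chain of type I collagen, was at 31.7, 30.0 and 4.47 RPKM. Tcf21 had 0 reads in all samples of iWAT and BAT. Between the white depots, 4 were higher in iWAT (Dpt, Twist2 and Fap with log2 fold changes of 2.48, 2.00 and 1.34 among them) and none lower. Of 7 genes of committed preadipocytes, most of which mature adipocytes also express, 4 were higher in iWAT and 2 in eWAT, with Fabp4 (1.38 ± 0.25), Col4a1 (1.20 ± 0.18) and Pparg (1.12 ± 0.13) leading. Over BAT, 6 of them were higher and 1 lower in iWAT, and 5 higher and 2 lower in eWAT, with Col15a1 (3.74 ± 0.14 and 2.74 ± 0.21) and Icam1 (2.64 ± 0.28 and 3.78 ± 0.14) leading and Pparg lower in eWAT (-1.65 ± 0.13). On total reads these counts became 7 and none, and 5 and 1.

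The ligands of the 2 PDGF receptors were all measured. Pdgfd, a ligand of PDGFRβ, was higher in iWAT than in eWAT (6.16 against 1.69 RPKM, log2 fold change 1.87 ± 0.17, edgeR adjusted p = 1.14e-06), the direction of Pdgfrb, while Pdgfb (-0.42 ± 0.16) and Pdgfa (-0.20 ± 0.05) were lower. Pdgfa and Pdgfc, ligands of PDGFRα, were higher than in BAT in iWAT (1.29 ± 0.10 and 1.49 ± 0.13) and in eWAT (1.51 ± 0.10 and 1.44 ± 0.09). With TMM, Pdgfra was not higher than in BAT in either depot. On total reads it was higher in eWAT (0.51, edgeR adjusted p = 0.0351). Pdgfd was lower than in BAT in eWAT (-2.38 ± 0.16) and with TMM also in iWAT (-0.54 ± 0.08), where no ligand was lower on total reads. In the tissue factor pathway, F7, whose product binds tissue factor, and F10, which that pair activates, ran opposite to F3 in the white depots: both were lower in iWAT than in eWAT (7.65 against 24.7 and 2.14 against 7.06 RPKM, log2 fold changes -1.69 ± 0.21 and -1.71 ± 0.21), as was the protein C receptor gene Procr (-1.95 ± 0.35). In BAT, F7 and F10 were at 0.101 and 0.0647 RPKM, and both were higher in iWAT (5.57 ± 0.30 and 4.45 ± 0.31) and in eWAT (7.29 ± 0.24 and 6.20 ± 0.20). Of the 8 genes of the pathway other than F3, 2 were higher in iWAT and 3 in eWAT, 6 were higher in iWAT and 1 in BAT (Tfpi2 at 2.94 ± 0.17 among the former), and 6 were higher in eWAT and 2 in BAT. On total reads these became 7 in iWAT and 6 in eWAT, with none higher in BAT.

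Families and neighbours of the members were described in the same way. Of 7 other Ly6 genes, 3 could be tested and all 3 were higher in iWAT than in eWAT, as Ly6a was: Ly6c1 (1.55 ± 0.24), Ly6e (1.42 ± 0.18) and Ly6i (1.37 ± 0.25). Ly6e was also higher in iWAT than in BAT (1.14 ± 0.09), as were all 3 on total reads, and Ly6c1 and Ly6i were lower in eWAT than in BAT with TMM (-1.34 ± 0.15 and -0.97 ± 0.23), where on total reads 1 gene was higher and 1 lower. Podxl and Podxl2, the relatives of Cd34, were both higher in iWAT than in eWAT (1.68 ± 0.28 and 0.90 ± 0.24), and against BAT they split, with Podxl2 higher (2.35 ± 0.15 in iWAT, 1.48 ± 0.27 in eWAT) and Podxl lower (-0.84 ± 0.21 and -2.49 ± 0.18) with TMM, and in eWAT also on total reads. Of the 4 relatives of Dpp4, Fap was higher in iWAT than in eWAT and Dpp7 (-1.48 ± 0.11) and Dpp9 (-0.47 ± 0.06) were lower. Dpp8 was lower than in BAT in both white depots (-1.65 ± 0.13 and -1.47 ± 0.10), and 2 of the 4 were higher in each, or 3 on total reads. The maternally expressed RNAs Meg3 and Rian, imprinted neighbours of Dlk1, were higher in BAT, as Dlk1 was: over BAT, Meg3 was at -2.50 ± 0.32 in iWAT and -2.10 ± 0.15 in eWAT, and Rian was at -1.80 ± 0.28 and -1.42 ± 0.13. Mirg was also lower in eWAT with TMM (-1.70 ± 0.39). Neither Meg3 nor Rian differed between the white depots past the threshold.

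Markers of other cells that share the members were measured as whole lists. Of the 10 mural markers, 9 were higher in iWAT than in eWAT and none lower (median log2 fold change 1.52), and of the 8 endothelial markers 7 were higher and none lower (median 1.62). These medians lay above that of the members, 0.75. Against BAT with TMM, mural markers were split in iWAT (3 higher, 2 lower) and mostly lower in eWAT (1 higher, 8 lower), and endothelial markers were higher in iWAT (4, none lower) and lower in eWAT (6, none higher). On total reads these counts became 7 and 1, 2 and 5, 8 and none, and 1 and 3. Mural sums were 196 to 385 RPKM in iWAT, 49.2 to 126 in eWAT and 132 to 183 in BAT, and endothelial sums 207 to 588, 71.4 to 168 and 92.1 to 205. Their part in Pdgfrb, Cd34 and Ly6a was not tested. All 6 macrophage markers were higher in eWAT than in iWAT and higher in both than in BAT, with sums of 2564 to 4134, 452 to 891 and 24.5 to 48.4 RPKM. Of 5 Schwann cell markers, 3 were higher in iWAT than in eWAT and none lower. Against BAT, 1 was higher and 3 were lower in iWAT, with S100b at -4.32 ± 0.11, and 1 was higher and 4 were lower in eWAT. On total reads the counts for iWAT became 2 and 1. All 5 skeletal muscle markers were called higher in BAT against iWAT and against eWAT. Between the white depots, 3 of 3 tested were higher in iWAT. The sum of these markers in BAT varied from 1.52 RPKM in mouse 2 to 106 in mouse 5. BAT mouse 2 was the highest for 6 members in RPKM. With TMM scaling it was not the highest for Dpp4, Pi16 and Ly6a among them. The mesothelial markers Wt1, Upk1b and Muc16 had 0 reads in BAT, and of 5 tested of 7 such markers, 4 were higher in eWAT than in iWAT. Lrrn4 was lower in iWAT than in BAT, the 1 mesothelial marker tested there, and 4 of 5 were higher and 1 was lower in eWAT. B cell markers summed to 0.528 to 2.17 RPKM over all samples, with 2 of 3 tested higher in iWAT than in eWAT, none of 4 called between iWAT and BAT with TMM but 2 higher in iWAT on total reads, and 1 of 3 higher and 2 lower in eWAT than in BAT. Among T cell markers, Lck (1.22 ± 0.48) was higher in iWAT than in eWAT, the 1 call of 3 tested and none on total reads, and Cd2 was higher in both white depots than in BAT, the 1 call of 2 tested in each, or 2 on total reads.

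**Figure D5:**
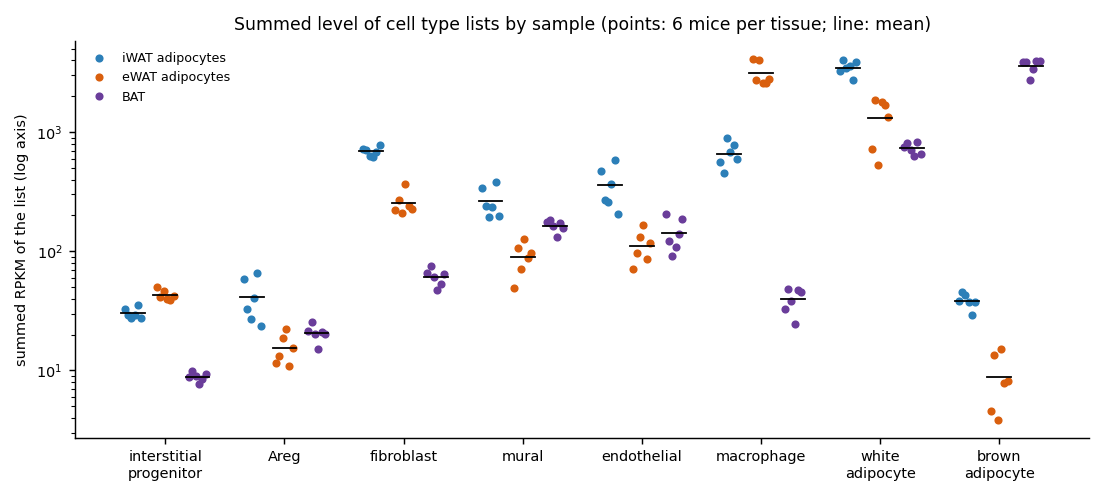
Summed RPKM (log axis) of 8 cell type lists in the 6 mice of each tissue, with the mean as a line. Mural and endothelial sums are highest in iWAT, macrophage sums in eWAT and brown adipocyte sums in BAT, and the fibroblast sum falls from iWAT (622 to 781) over eWAT (212 to 364) to BAT (47.7 to 76.0).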

How the data were processed

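RNA-seq of 18 samples was analysed as deposited, one table per sample and no pooling. The authors mapped reads to mm9, and the submitters' processing notes name cutadapt 1.16 and HISAT2 2.1.0. The counting program, its use of strand and its handling of shared reads are not given in the sources used here. The deposited tables give raw read counts per transcript row and, as a normalized unit made by the authors, RPKM.

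Members and lists were chosen with earlier results of these data known. The text names all 9 members, the 3 most alike genes of each (for Dpp4, 1 of them is not reported here), and, of each list, the leading genes by size of fold change past the threshold. Tcf21 and single genes of the other cell type lists were named after their values were seen. Each pair of tissues was fitted separately with edgeR 4.0.16 (R 4.3.3, quasi-likelihood, TMM) over all symbols with a mean of at least 10 reads, with Benjamini-Hochberg adjusted p under 0.05 as a call. The standard error was derived from the F statistic. Ratios used RPKM plus 0.1 and exact permutation tests (scipy 1.17.1). Overlap between groups after scaling was judged on TMM-scaled RPKM. The scripts were tested on simulated data. DESeq2 1.42.0 and limma 3.58.1 on log2 RPKM were alternatives, with scaling by total reads, filters, lanes, left-out samples and the mouse number as a block. Same-numbered samples were not called paired by the measured values: the mean correlation of their deviations was -0.00498, -0.0137 and 0.0135 over 6, 4 and 4 pairs. Since a number may still mark the same animal, blocked values are given where a call changed. Against BAT, the blocked fits kept only the samples of the 4 shared numbers. The floor of 3 reads covers counting error only. Python 3.11.15, numpy 2.4.6, pandas 2.3.3 and matplotlib 3.10.9 were used.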

Additional observations from a re-analysis of the deposited data

Results flagged for a closer look

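Among the 27 sets of 6 RPKM values (9 genes in 3 tissues), 3 held a value far from the other 5. Chance alone gives such a value in about 1 of 20 sets. The sets of a tissue share libraries, so they are not independent, and no excess over chance was tested. Dpp4 was 0.159 RPKM (50 reads) in eWAT mouse 4, against 0.0740 to 0.102 in the others. In the same library Thy1 was 2.58 RPKM (196 reads), against 1.63 to 1.96. Ly6a was 35.2 RPKM (686 reads) in BAT mouse 16, against 40.9 to 43.2. With TMM scaling this sample did not stand apart, at 54.5 against 52.8 to 56.4 in the other BAT mice.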

How the results depend on the processing

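Under DESeq2, TMM without the mitochondrial and top 10 rows, no read filter, summed rows or a single fit of 18 samples, all 26 member fold changes kept their direction and call. Scaling by total reads turned F3 for iWAT over BAT to 0.25 and, for eWAT over BAT, Pdgfra to 0.51, Pdgfrb to 0.23 and Cd34 to 0.63. It put 13703 of 16757 calls on the iWAT side against BAT (7528 of 14864 with TMM) and 12965 of 17026 on the eWAT side (8243 of 16561). For F3 between iWAT and BAT, limma gave 0.0068 with 0.1 RPKM added and 0.0058 with 1 RPKM. Between eWAT and BAT it gave 0.17 and 0.094 for Pdgfra and 0.27 and 0.23 for Cd34. Besides these reversed directions, total reads and each limma setting ended the calls of 5 further member fold changes and gave calls to 2. Among these, limma ended those of Pdgfra and Dpp4 between iWAT and BAT. By construction, neither total reads nor limma on RPKM applies TMM.

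Adding the replicate block by mouse number, Pi16 between iWAT and eWAT (0.80), Pdgfrb (0.64) and Thy1 (0.59) between iWAT and BAT were no longer called, Cd34 between eWAT and BAT (-0.51) became called, and no other call changed. Against BAT the blocked fits held only the 4 mice numbered in both tissues. There the block cannot be told apart from the loss of samples. Leaving out eWAT mouse 4 alone, absent from the blocked fit, also gave a call of Cd34 (-0.39). Without iWAT mice 1 and 5, a setting chosen after seeing the data, Thy1 for iWAT over eWAT turned to -0.049 and Ly6a for iWAT over BAT to -0.078. Within lane 1, with 6 samples, 7300 genes were called between iWAT and eWAT, against 13454.

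Of the ratios to Pdgfra, adding 1 RPKM ended the calls of Dlk1 (0.31 for iWAT over eWAT, -0.15 for iWAT over BAT) and gave one of Thy1 (0.35, eWAT over BAT). With nothing added, Dpp4 for iWAT over BAT turned to -0.27, and Dlk1 in eWAT could not be computed, with 0 reads in mouse 2. Without iWAT mice 1 and 5, Pi16 (-0.91) lost and F3 (0.83) gained a call for iWAT over BAT. Without eWAT mice 1 and 3, also chosen after seeing the data, F3 for iWAT over eWAT (0.86) and Ly6a (-0.36) and F3 (-0.51) for eWAT over BAT lost theirs and Thy1 (0.73) gained one. Leaving out single samples moved F3 for iWAT over eWAT between 0.98 and 1.35, Dpp4 and Pi16 for iWAT over BAT between -0.10 and 0.17 and between -1.20 and -0.86, and Cd34, Ly6a and Thy1 for eWAT over BAT between -0.036 and 0.25, -0.72 and -0.43, and 0.43 and 0.63, with a call or direction changed for each. The cause was not tested.

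Leaving out single samples ended the call of Pi16 between iWAT and eWAT in 8 of 12 cases (iWAT mice 1, 2, 5 and 16, eWAT mice 2, 4, 5 and 16; 0.73 to 0.93). Between iWAT and BAT it ended that of Pdgfrb in 7 of 12 (iWAT mice 1 and 5, BAT mice 1, 5, 16, 17 and 18; 0.39 to 0.62) and that of Thy1 in 8 of 12 (the same 7 samples and BAT mouse 2; 0.37 to 0.61). Calls appeared for Pdgfra without iWAT mouse 5 (-0.77) and Thy1 without iWAT mouse 16 (0.57) for iWAT over eWAT, and for Pdgfra without eWAT mouse 1 (-0.53) and Cd34 without eWAT mouse 4 (-0.39) for eWAT over BAT. Depth limits Dlk1 in eWAT and Dpp4 throughout.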
